A study of Anolis carolinensis with 2 samples.

Results

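Genes of the green anole, Anolis carolinensis, that were annotated with exactly 2 transcripts of nearly the same length were compared between 2 whole embryos. The members were loci that held 1 gene and 2 transcripts, whose transcripts differed in length by 1 to 60 bases, and that did not lie on a linkage group (LG) of the assembly. This gave 375 loci of the 797 loci with 1 gene and 2 transcripts, among 21085 genes and 22232 transcripts in all. Shares of the longer transcript are given for the 120 members whose gene FPKM (fragments scaled by transcript length and by the mapped fragments of the library) was at least 5 in either library. Of the other members, 138 were listed at 0 in both libraries. The remaining 117 lay above 0 in at least 1 library and under 5 FPKM in both.

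The embryos were collected 0 to 1 days after the eggs were laid. One had 28 somite pairs and the other 38, which the series sets beside mouse embryos of 9.5 and 10.5 days. Both were whole embryos, so fewer cells of a type and less RNA per cell cannot be told apart. Each stage was a single embryo and a single library, so embryo, library and stage cannot be told apart and no p-value was computed. The labels give neither the strain nor the sex of the embryos.

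Many genes make more than one mature RNA. Transcripts that differ by a few bases can arise when the splicing machinery picks between neighbouring splice sites, when a very short exon is skipped or kept, or when a start or end differs. A difference divisible by 3 leaves the reading frame downstream intact if it lies inside the coding sequence, and adds or removes whole codons. A difference not divisible by 3 shifts the frame. Short exons that keep the frame are known from mammals to be used mainly in nerve cells, and paired splice sites 3 bases apart are common in vertebrates. Short reads tell transcripts apart only where they cross the bases or the junction that differ. Where only a few bases differ, most reads of a locus carry no information on its share. Only the net length difference was known here, and more bases can differ, as at loci whose transcripts share no end.

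Mapped fragments, recovered from the FPKM values, numbered 13859399 at 28 somite pairs and 12908614 at 38. The 120 expressed members had a median of 221.5 fragments at 28 somite pairs (11 to 15906) and 211 at 38 (0 to 11620). Loci with 1 transcript had a deposited interval set by the FPKM alone, of 2 times its square root on either side. At members the interval was wider. The excess, scaled by effective length, gave the same standard deviation for both transcripts of a locus, within 0.0448 percentage points at 28 and 0.0341 at 38 over the 433 and 434 loci with 2 transcripts above 0. This standard deviation (SD) is used here as the error of dividing a locus's fragments between its transcripts. It belongs to 1 library and holds no spread between embryos. No SD could be had where a transcript was listed at 0, which left 117 expressed members with an SD at 28 somite pairs, 116 at 38 and 114 at both.

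Nearly all length differences were multiples of 3. They were so in 369 of the 375 members, and in 118 of the 120 expressed ones. In 354 of the 375 both transcript lengths were themselves multiples of 3, which fixes the difference as one. What the models hold besides coding sequence was not tested. Among loci with a difference over 60 bases, 368 of 381 differences were multiples of 3. The smallest steps were the most frequent, with 54 members at 6 bases, 41 at 3 bases and 29 at 9 bases. The median difference was 21 bases, against transcripts of a median 1107 bases.

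**Figure D1:**
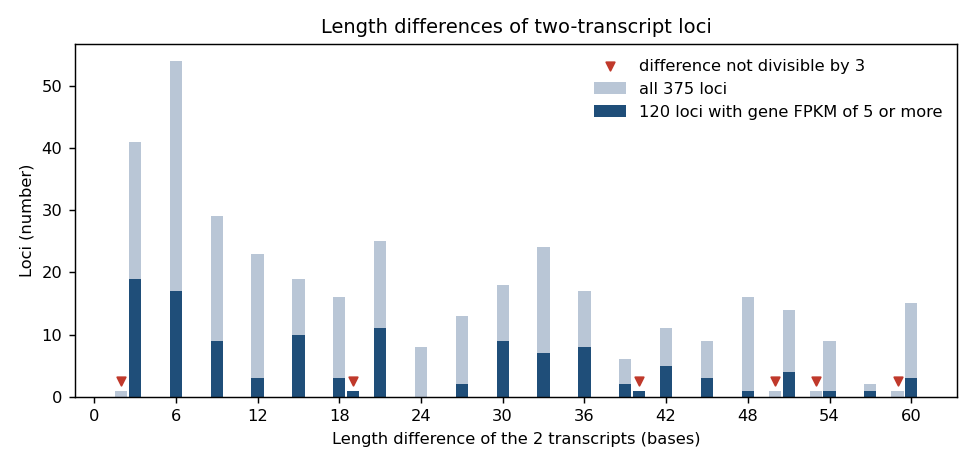
Number of loci (vertical axis) by the length difference of their 2 transcripts in bases (horizontal axis). Pale bars are all 375 members, dark bars in front are the 120 members with a gene FPKM of at least 5 in either library, and triangles mark the 6 members whose difference was not divisible by 3. The tallest bars are at 6 and 3 bases.

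The outer ends of the transcripts showed where the difference could lie. Both ends coincided in 137 of the 375 members (36.5%), so their difference was inside the transcript. A single end was shared in 144 and none in 94. Among the 120 expressed members, both ends coincided in 59 (49.2%), 1 end in 45 and none in 16. Loci with a difference over 60 bases shared both ends less frequently, in 54 of 381 (14.2%), and neither end in 186. These counts describe the annotation and were not tested.

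By the listed FPKM, a single transcript held nearly all of the expression in most expressed members. With 1 FPKM added to each transcript this was no longer so. A transcript then held 90% or more in 53 of the 118 members divisible by 3 at 28 somite pairs and 49 at 38. The values that follow are those listed. At 28 somite pairs the longer transcript had 10% or less of the locus's FPKM in 53 of 120 members and 90% or more in 25. At 38 it had 10% or less in 51 of 119 and 90% or more in 22. Between these bounds lay 42 members at 28 and 46 at 38. The shorter transcript was thus the dominant one more frequently. Over 60 bases of difference the order was opposite, with 19 of 119 loci at 10% or less and 44 at 90% or more at 28 somite pairs, and 26 and 38 of 118 at 38. With 1 library per stage this contrast between short and long differences was not tested.

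Among members whose difference was divisible by 3, the median share of the longer transcript was 20.8% at 28 somite pairs (quartiles 0.73 and 73.3, n = 118) and 25.4% at 38 (1.05 and 74.9, n = 117). The quartiles lie far apart, so the median describes few single loci. Taken over all expressed members, divisible by 3 or not, shares were lowest where both ends coincided. The median there was 5.35% at 28 and 8.49% at 38 over 59 loci. With 1 shared end the medians were 37.9% and 27.1% over 45 loci. With no shared end they were 49.2% over 16 loci and 47.5% over 15. The classes overlapped widely, since the loci with both ends shared had an upper quartile of 69.5% at 28. Depth differed as well, with a median of 286 fragments at 28 where both ends were shared, 204 with 1 shared end and 125.5 with none. Depth and shared ends were not separated, and the part of each in the shares was not tested.

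The most abundant members were almost pure in 1 transcript at both stages. The highest, on scaffold GL343238.1 (166405 to 183901, difference 6 bases), had a gene FPKM of 859.1 at 28 somite pairs, from 15906 fragments, and of 666.5 at 38, from 11620. Its longer transcript held 0.013% ± 0.11 (SD) at 28 and 0.018% ± 0.15 at 38. A locus on chromosome 3 (7381107 to 7386007, 3 bases) had 667.9 and 830.1 FPKM, and its longer transcript held 0.29% ± 0.94 and 0.19% ± 0.69. A locus on GL343276.1 (1675845 to 1686295, 3 bases) had 395.9 and 232.5 FPKM. Its longer transcript held 0.0030% ± 0.064 and 0.011% ± 0.16.

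Next in mean FPKM came a locus on chromosome 1 (39852054 to 39859497, 36 bases), with 307.4 and 279.5 FPKM. Its longer transcript held 0.0021% ± 0.022 and 0.0031% ± 0.028. The locus on GL343507.1 (107364 to 122407, 57 bases) had 168.8 and 117.7 FPKM, with 0.0042% ± 0.044 and 0.013% ± 0.086 in the longer transcript. Only the locus on GL344018.1 (38428 to 41710, 33 bases), among these 6, used the longer transcript, which held 99.5% ± 0.67 at 28 and 98.2% ± 1.76 at 38, of 379.8 and 194.5 FPKM. In none of the 6 did the share differ between stages by more than the combined SD of both libraries.

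Shares kept their place between the embryos at most members. Of the 53 members at 10% or less at 28 somite pairs, 46 were at 10% or less at 38, 6 lay between the bounds and 1 was at 90% or more. Of the 25 at 90% or more, 17 were so at 38 and 8 lay between. Across the 119 members with a share at both stages, the shares at both stages had a Pearson's r of 0.878 and a Spearman's rho of 0.877, as a description over loci that share the same 2 libraries. The difference was under 1 percentage point in 42 members. Its median size was 3.02 points in the 117 members divisible by 3, with 65 shares higher at 38, 51 higher at 28 and 1 equal.

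**Figure D2:**
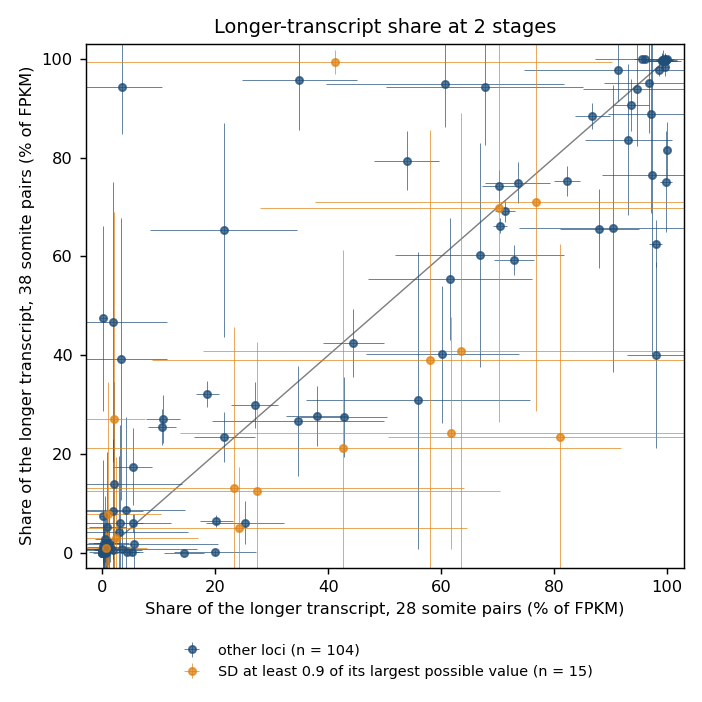
Share of the longer transcript in percent of the locus's FPKM at 28 somite pairs (horizontal axis) and 38 (vertical axis), 1 point per member with a share at both stages (n = 119). Bars are ± 1 SD from the deposited intervals, cut at the frame and absent where a transcript was listed at 0, and the line marks equal shares. Loci gather in the corners near 0 and 100, and the 15 orange loci, whose SD was at least 0.9 of the largest a share of that size can have, carry the longest bars.

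How well a share was determined varied with the size of the length difference, and at some loci it was hardly determined. The SD was divided by the largest SD that a share of the same size can have, so this ratio has an upper limit of 1. A ratio under 0.9 does not by itself mean a well determined share. On chromosome 4 (67536822 to 67566955, 3 bases) a ratio of 0.77 at 28 somite pairs went with a share of 80.9% ± 30.4. This ratio reached 0.9 in at least 1 library at 5 of 19 expressed members with a difference of 3 bases and 4 of 17 at 6 bases. It did so at 5 of 48 from 7 to 30 bases, 1 of 36 from 31 to 60 bases, and 1 of 119 over 60 bases. The median ratio at 28 somite pairs was 0.40, 0.33, 0.24 and 0.16 in the 4 classes of members in that order, and 0.12 over 60 bases. At 38 it was 0.50, 0.31, 0.25 and 0.18, and 0.13.

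The ratio was lower at greater depth over the members as a whole, and depth also differed between the length classes. The median number of fragments at 28 somite pairs was 172 at 3 bases, 308 at 6, 225 at 7 to 30 and 236.2 at 31 to 60, and 402 over 60 bases. Members at 6 bases had more fragments than those at 7 to 30 or 31 to 60, and a higher median ratio. Members at 3 bases had the fewest fragments and the highest ratio, and loci over 60 bases the most and the lowest. Depth and length difference were not separated here, and the part of each in the ratio was not tested. In members with at least 500 fragments in both libraries the ratio reached 0.9 in 1 of 27, and in those under 100 fragments in a library in 9 of 40. Of the members with a share between 10% and 90%, 10 of 42 at 28 somite pairs and 9 of 46 at 38 had a ratio of 0.9 or more. At these loci the listed share says little about which transcript was made. An example is the locus on chromosome 3 (16658575 to 16697818, 6 bases), where 1534 fragments at 28 somite pairs gave 24.1% ± 40.3.

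**Figure D3:**
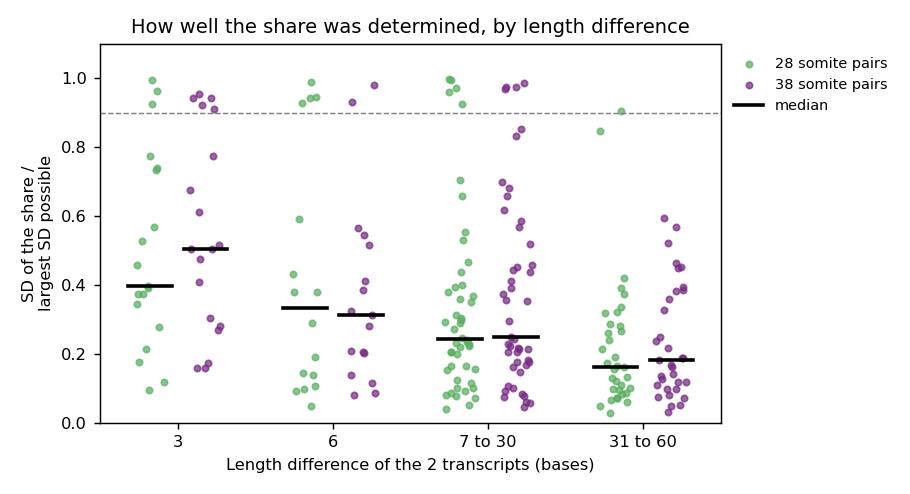
SD of the share divided by the largest SD possible for a share of that size (vertical axis, no unit) by length difference in bases (horizontal axis), for expressed members at 28 somite pairs (green) and 38 (purple). Each point is a locus, black lines are medians, the dashed line is at 0.9, and the sideways spread of points has no meaning. Medians at 28 fall from 0.40 at 3 bases to 0.16 at 31 to 60 bases.

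The share of the longer transcript differed by at least 20 percentage points between the embryos in 23 of 119 members, against 16.2% of all 240 two-transcript loci of unequal length and the same FPKM minimum, which include the members. It was higher at 38 somite pairs in 11 and at 28 in 12. A difference of at least 50 points was listed at 5 members (3.33% of all such loci). The leading transcript changed in 11 members (10.4% of all such loci), 4 of them towards the longer transcript at 38. Gene FPKM was at least 5 in both libraries for 17 of the 23.

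Most of these differences did not exceed 2 combined SDs. Only 8 of the 23 exceeded 2 times the combined SD of both libraries (6.67% of all such loci met both rules), and 3 of the 11 changes of lead did. At 6 of the 23, and at 5 of the 11, the SD ratio was 0.9 or more in a library. In the 78 members whose ratio was under 0.5 at both stages, 10 differed by at least 20 points and 4 changed their lead.

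**Figure D4:**
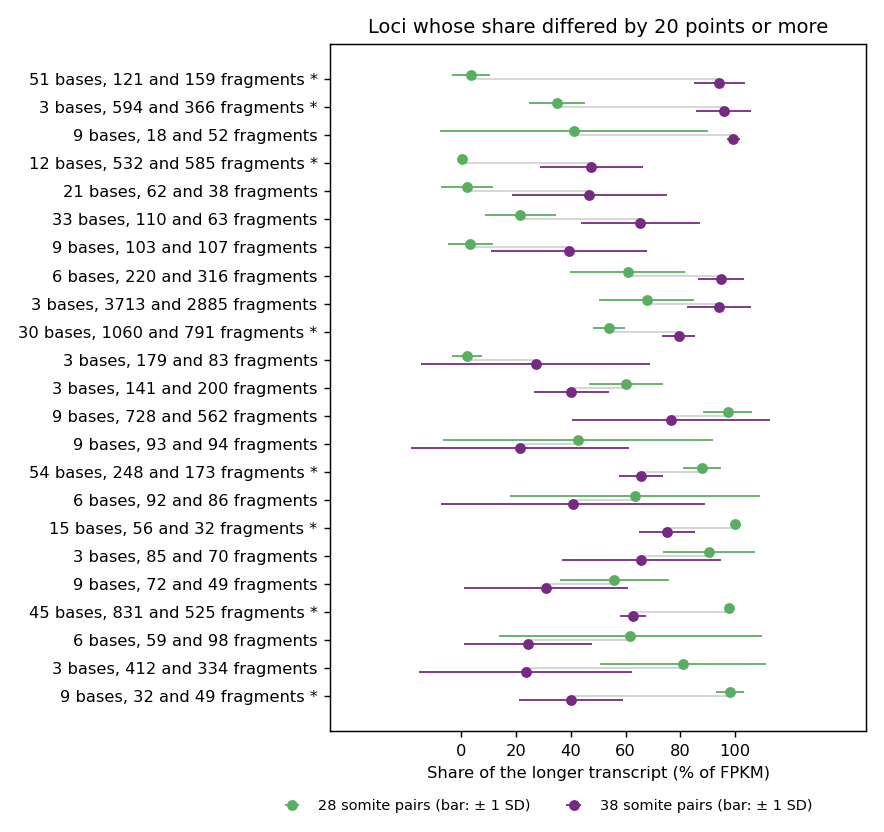
Share of the longer transcript in percent of the locus's FPKM (horizontal axis) at the 23 members whose share differed by at least 20 points, ordered from the largest gain at 38 somite pairs (top) to the largest loss (bottom). Each row gives the length difference and the fragments at 28 and 38 somite pairs, rounded to whole numbers, green and purple points are the 2 stages, bars are ± 1 SD and can pass 0 or 100, and a star marks the 8 loci whose difference exceeded 2 combined SDs.

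The largest difference was at ENSACAG00000006382 on GL343983.1 (381 to 22781), whose transcripts of 513 and 564 bases share 1 end. Its gene FPKM was 18.4 at 28 somite pairs and 24.0 at 38. The longer transcript held 3.52% ± 6.95 at 28, where the locus had 121 fragments, and 94.2% ± 9.33 at 38, where it had 159, a difference of 7.80 combined SDs. By the listed FPKM, most of the expression was assigned to the shorter model in the younger embryo and to the longer model in the older one. The SD was 0.39 of the largest possible at both stages, so the size of this difference was only roughly determined.

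At ENSACAG00000011576 on chromosome 4 (46997164 to 47085562), transcripts of 6672 and 6675 bases share both ends. Gene FPKM was 7.84 and 5.17, from 594 and 366 fragments. The longer transcript held 34.9% ± 10.2 at 28 and 95.8% ± 10.2 at 38, 4.23 combined SDs apart. Its SD was 0.214 of the largest possible at 28 and 0.504 at 38. The locus was therefore not among the members with a ratio under 0.5 at both stages. A locus on chromosome 4 (113541042 to 113633760, 12 bases, no shared end) had 35.1 and 41.5 FPKM, and its longer transcript held 0.18% ± 0.70 and 47.5% ± 18.7, 2.52 combined SDs apart. Its fragments, 532.5 and 585.5, were not whole numbers, unlike those of most members, and the cause was not tested. At a locus on chromosome 3 (145292617 to 145365145, 30 bases) with 1060 and 791 fragments, the share was 53.9% ± 5.79 and 79.4% ± 5.94. These 4 were the members at least 20 points and 2 combined SDs higher at 38.

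In the other direction, ENSACAG00000012788 on chromosome 2 (39928474 to 39949634, 45 bases) was the best covered. It had 68.7 and 47.3 FPKM, and its longer transcript held 97.9% ± 1.21 at 28 (831 fragments) and 62.6% ± 4.72 at 38 (525 fragments), 7.25 combined SDs apart. A locus on chromosome 2 (93177761 to 93182423, 9 bases) went from 98.1% ± 5.19 to 40.0% ± 18.9, with only 32 and 49 fragments. A locus on GL343218.1 (1341890 to 1381935, 15 bases) had 99.8% ± 1.04 and 75.1% ± 10.2, from 56 and 32 fragments. A locus on chromosome 1 (41911014 to 41969304, 54 bases) had 88.0% ± 7.03 and 65.6% ± 8.03, 2.09 combined SDs apart. Its fragments, 248.5 and 173.5, were not whole numbers either.

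Several large differences at genes with 5 FPKM or more in both libraries stayed inside 2 combined SDs. On chromosome 4 (67536822 to 67566955, 3 bases) the longer transcript held 80.9% ± 30.4 at 28 and 23.4% ± 39.0 at 38, 1.16 combined SDs apart, despite 412 and 334 fragments. On GL343688.1 (140463 to 142163, 21 bases) it held 1.94% ± 9.41 and 46.7% ± 28.3. On chromosome 4 (23086113 to 23106131, 6 bases) it held 61.7% ± 48.0 and 24.3% ± 23.5, the SD at 28 being 0.99 of the largest possible.

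Smaller differences were well resolved at some loci. In all, 19 of the 114 members with an SD at both stages differed by more than 2 combined SDs (19.3% of the 233 two-transcript loci with both SDs), 8 with a higher share at 38 and 11 with a higher share at 28. Of members with a difference of 3 or 6 bases, 3 of 35 did, against 8 of 47 from 7 to 30 bases, 8 of 32 from 31 to 60 bases and 26 of 116 loci over 60 bases. The median SD of the share at 28 somite pairs was 8.03, 2.94, 2.98 and 2.80 points in the same order. A larger SD makes 2 combined SDs harder to exceed, so these counts do not compare how frequently shares changed. Differences of at least 20 points numbered 9 of 36, 10 of 47, 4 of 36 and 15 of 118. ENSACAG00000017988 on GL343244.1 (220614 to 241617, 33 bases, both ends shared) had nearly equal gene FPKM, 93.2 and 92.4. Its longer transcript held 20.1% ± 2.91 at 28 and 6.52% ± 1.22 at 38, from 3034 and 2791 fragments.

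The opposite direction was seen at a locus on chromosome 1 (199248894 to 199283663, 30 bases, both ends shared). Its gene FPKM was 58.9 and 58.6, and its longer transcript held 18.5% ± 2.0 at 28 and 32.1% ± 2.63 at 38. On chromosome 4 (98512151 to 98536930, 21 bases, both ends shared) gene FPKM was 15.3 and 15.0 and the share 10.5% ± 2.47 and 25.4% ± 3.64. At both loci the level of the gene was close between the embryos while the shares were 4.09 and 3.39 combined SDs apart.

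Other loci used both transcripts and gave near equal shares in both embryos. On chromosome 1 (235667439 to 235715323, 18 bases) the longer transcript held 71.3% ± 1.75 and 69.2% ± 2.10, from 3659 and 2746 fragments. On chromosome 4 (43352633 to 43359190, 6 bases) it held 44.4% ± 5.33 and 42.5% ± 6.86, from 1219 and 925 fragments. On chromosome 2 (95739799 to 95745862, 45 bases) it held 70.2% ± 3.08 and 74.1% ± 3.27. These loci were chosen after their values were seen, as well covered members with intermediate shares.

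A net difference of 3 bases was held by 19 expressed members, and 7 of these had an FPKM of at least 20 in a library. In 5 of the 7 the longer transcript had under 5% at both stages. Besides the 2 abundant loci on chromosome 3 and GL343276.1, these were a locus on chromosome 2 (94667803 to 94675342), with 1.80% ± 5.25 and 0.46% ± 1.82, a locus on GL343202.1 (1813776 to 1817457), with 3.40% ± 13.3 and 0.75% ± 4.43, and a locus on GL344507.1 (38789 to 56190), with 2.88% ± 12.3 and 4.19% ± 15.5. At the locus on chromosome 3 (9058200 to 9099011), with 131.9 and 109.4 FPKM from 3713 and 2885 fragments, the longer transcript held 67.6% ± 17.5 and 94.2% ± 11.8, 1.26 combined SDs apart. At the locus on chromosome 5 (14782085 to 14793565) it held 2.05% ± 5.52 and 27.1% ± 41.8. That difference was 0.60 combined SDs, so neither of these last loci passed 2 combined SDs.

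Only 2 expressed members had a difference not divisible by 3, so this class allows no median. On chromosome 3 (196147747 to 196163138), transcripts of 2533 and 2573 bases share both ends and differ by 40 bases. Gene FPKM was 18.0 and 11.98, and the longer transcript held 82.2% ± 2.30 at 28 somite pairs (672 fragments) and 75.3% ± 3.07 at 38 (419 fragments), 1.81 combined SDs apart. Both transcripts were therefore listed at both stages, the longer one ahead. On GL343832.1 (8885 to 37047, 19 bases) the longer transcript held 1.03% ± 9.27 and 7.95% ± 26.6, with an SD 0.92 and 0.99 of the largest possible. Its share was not determined. None of the 2 differed by 20 points or changed its lead. Of the 4 members of this class under the FPKM minimum, 3 were listed at 0 in both libraries and the other is given with the values near the threshold.

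Differences of at least 20 points were found at low and high depth. Counted by the library with fewer fragments, 11 of 39 members under 100 fragments, 7 of 53 from 100 to under 500 and 5 of 27 with 500 or more differed by at least 20 points. Loci over 60 bases gave 5 of 27, 10 of 52 and 0 of 39 in the same depth classes. Differences beyond 2 combined SDs by any amount numbered 2, 11 and 6 in members and 2, 16 and 8 over 60 bases. The lead changed in 7, 4 and 0 members and in 2, 10 and 1 of the loci over 60 bases. The contrast between short and long differences was not tested here either.

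**Figure D5:**
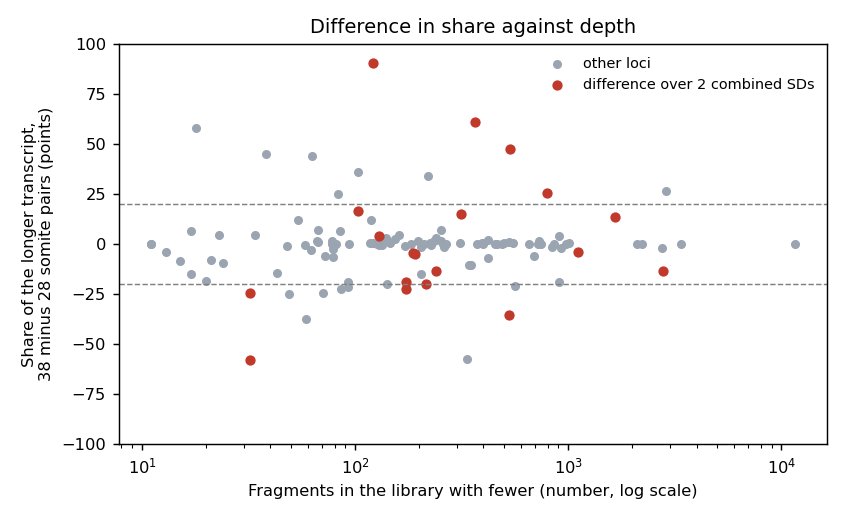
Share of the longer transcript at 38 minus 28 somite pairs in percentage points (vertical axis) against the fragments of the locus in the library with fewer (horizontal axis, log scale), for the 119 members with a share at both stages. Red points are the 19 loci whose difference exceeded 2 combined SDs, grey points are the others, and dashed lines are at 20 points either way.

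Gene levels of the members were slightly lower at 38 somite pairs in the median, as were those of all genes. Listed genes held 52.1% of the mapped fragments at 28 somite pairs and 43.4% at 38, and the part of this in the gene levels was not tested. On the log2(FPKM + 1) scale, 38 minus 28 somite pairs, the median difference was -0.27 over the 120 expressed members and -0.22 over the 7003 genes of the series that reached 5 FPKM in a library. On that scale 7 members were at least 2-fold higher at 38, against 4.31% of all genes, and 6 at least 2-fold higher at 28, against 6.63%. A locus on chromosome 4 (121529454 to 121549715, 33 bases) had 86.3 FPKM at 28 and 14.4 at 38. Its longer transcript held 14.5% ± 3.49 at 28 and was listed at 0 at 38, where the locus had 43 fragments. On chromosome 6 (53964778 to 53984555, 21 bases) gene FPKM was 23.5 and 53.3, and the shorter transcript led at both stages, the longer holding 0.60% ± 2.21 and 0.037% ± 0.20.

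Values next to the thresholds were as follows. At a difference of 60 bases, the locus on chromosome 2 (113262934 to 113283279) had a share of 25.3% ± 6.97 at 28 and 6.12% ± 4.44 at 38, and the locus on chromosome 1 (175233834 to 175241424) had 0.070% ± 0.85 and 0.22% ± 2.58. The third at 60 bases, on chromosome 2 (166283538 to 166293377), had 95.5% ± 8.21 and 100%. Just beyond, shares at 63, 66 and 69 bases were 59.4% and 60.1% on GL343528.1, 11.3% and 2.35% on chromosome 2, and 36.6% and 6.95% on chromosome 1. Just above 5 FPKM in a library, a locus on chromosome 1 (11843125 to 11868043) had 1.12% and 2.03%, another on chromosome 1 (53593730 to 53648942) had 4.17% and 8.58%, and a locus on chromosome 3 (174097816 to 174100111) had 19.2% at 28 from 39 fragments and was listed at 0 at 38. Just under 5 FPKM, a locus on chromosome 3 (51307258 to 51314822) had 0.79% and 1.02%. A locus on GL343211.1 (2280719 to 2286779) was listed at 0 at 28 and had 14.4% at 38. The member on GL343220.1 (777892 to 784603), with a difference of 2 bases, had 44.6% ± 49.6 and 44.7% ± 49.3.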

How the data were processed

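RNA of 2 whole embryos was sequenced, 1 library per stage. Per the labels' protocols, libraries were made from total RNA with a NuGEN Ovation kit. TopHat placed the reads, untrimmed, on AnoCar2.0, per the series' design text. The submitters' processing notes also list Cufflinks. No tool version or annotation release is given in the sources used here. The deposited values are FPKM per gene and transcript with interval bounds, per the file headers, and the deposited transcript tables give the fraction of a locus's fragments assigned to each transcript. The gene and both transcripts of every expressed member had the status OK in both libraries.

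From these were computed the share of the longer transcript (its FPKM over the sum of both), the SD of the share and fragment numbers. The distance from a transcript's FPKM to its upper bound, divided by 2 and squared, minus the FPKM, was read as the variance of the assignment. Its root, times effective length over the locus's sum of FPKM times effective length, is the SD of the fraction, carried to the share by its slope. No label states this meaning. It rests on the equality of both transcripts' values given above, and a share near 0 or 100 can have a skewed error. The combined SD is the root of the summed squares of both libraries. Mapped fragments are the scale on which FPKM times effective length of single-transcript loci was whole within 0.02 fragments, for 93.8% of 4522 loci at 28 somite pairs and 93.3% of 5021 at 38, under 100 fragments. Fragments of an amplified library are not independent molecules. Summed fragments were whole within 0.05 in 114 and 113 of the 120 expressed members.

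The members, lists and rules were chosen with earlier results of these data known. Named were the 6 loci of highest mean FPKM and the 6 of largest difference in share at 5 FPKM in both libraries in each class, 3-base loci at 20 FPKM, and loci next to each threshold. Loci beyond 2 combined SDs, and those 2-fold apart in gene FPKM, were named after their values were seen. Identifiers could not be paired with names, since the reference table holds none of them, and no sequence was read. Positions are 1-based on AnoCar2.0. Steps were tested on simulated data built with the same interval formula, which checks the arithmetic and not the meaning of the interval. Unchanged loci had equal shares at both stages there, so that run cannot show how many differences noise gives. Values were computed in Python 3.11.15 with pandas 2.3.3, numpy 2.4.6 and scipy 1.17.1, and plotted with matplotlib 3.10.9.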

Additional observations from a re-analysis of the deposited data

How the results depend on the processing

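No paired analysis was possible because a stage holds a single library, and for the same reason no library could be left out. Of 136 alternative values, 112 stayed within 1.5 times a count or within the exact 95% interval of a median over loci, and 24 moved. Counts were compared as such, not as parts of the number of loci, which the FPKM minimum also changes. This tally therefore does not measure how stable the results were. For the median share at 28 somite pairs of members divisible by 3, 20.8%, that interval was wide, 4.35% to 42.6%. This median was 34.8% at an FPKM of at least 1, 5.30% at 10 and 4.43% at 20. With FPKM above 0 in both libraries and no other minimum it was 39.2%. These values lay inside the interval, so staying within it does not show that the median held. Only the gene-level median is signed, and it was negative in each of its 6 alternatives. Among the 118 members divisible by 3, 23 differed by at least 20 points and 11 changed their lead. Both counts changed with the FPKM minimum, and so did the number of loci. They were 41 and 26 of 211 loci at an FPKM of at least 1. Some of these 211 were listed at 0 in a library and had no difference to count. At 10 the counts were 13 and 4 of 82, and at 20 they were 7 and 2 of 48. With no minimum but FPKM above 0 in both libraries they were 46 and 30 of 200. With the SD under 0.5 of the largest possible at both stages, an alternative chosen after the data were seen, they were 10 and 4 of 77. With the added rule of 2 combined SDs, also chosen after, 8 differed by 20 points. At an FPKM of at least 20, the median share at 38 was 6.29%, the median difference 1.30 points, and 33 and 34 of 48 loci had 90% or more in 1 transcript at 28 and 38, against 77 of 118 and 72 of 117. With no minimum the median share at 38 was 40.1%. Taking shares of fragments, adding 1 FPKM to each transcript, limits of 30 or 120 bases, including linkage groups, and an FPKM of 5 in both libraries left all of these values within those bounds. Adding 1 FPKM still took loci with 90% or more in 1 transcript to 53 at 28 and 49 at 38, of 118. Such loci were then no longer in the majority. Scaling the values at 38 by 1.15 took the median gene-level difference of members to -0.068. Members 2-fold higher at 38 and 28 numbered 7 and 6 of 120 in the main setting. They were 9 and 5 with this scaling and 3 and 3 with a pseudocount of 5 FPKM. At an FPKM of at least 1 they were 22 and 17 of 214, at 10 they were 4 and 4 of 83, and at 20 1 and 3 of 48. The order of the main counts was thus level at 10 and the opposite at 20, and counts this small do not fix an order. The cause was not tested.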
